A study of Mus musculus with 200 samples.

Results

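Cdc20, Nusap1, Cenpf, Tpx2, Ccnb1, Cdk1, Aurka, Aurkb, Plk1 and Bub1b are 10 genes of the mitotic spindle, kinetochore and mitotic kinases, taken here by symbol from 25006 genes measured in every expression table of a series on mouse peri-implantation development. All 10 were found once in each table. They were chosen by name, with earlier results of these data known.

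The series holds 200 Smart-seq2 libraries, each a full-length cDNA library amplified from roughly 10 to 100 cells, in 70 groups and 7 tables. Its title names the remodelling of bivalent chromatin, that is, of promoters that carry both activating and Polycomb-type histone marks. Blastocysts with a gene knocked out by C-CRISPR, which cuts a gene with several guide RNAs at once, or exposed to GSK-J4, which blocks Kdm6a and Kdm6b, the enzymes that take methyl groups off H3K27, were cultured and their epiblast (Epi) profiled.

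Libraries came in these groups, 3 libraries each unless said otherwise. Epi treated with GSK-J4 was set against control Epi at E4.5 and again at E5.0, where the design text gives a dose of 50 µM added to E3.5 blastocysts. A Suz12 Eed double knockout, which removes 2 core subunits of Polycomb repressive complex 2, was set against controls in primitive endoderm (PrE, the precursor of yolk sac endoderm) and in Epi at E5.0. Zbtb17, a zinc finger transcription factor, was perturbed in 3 settings: Epi at E4.5, where the titles say knockout and the treatment label says dTAG; Epi at E5.0 with dTAG, a small molecule that makes cells degrade a tagged protein; and a knockout against wild type in embryoid bodies (EB, balls of embryonic stem cells left to differentiate) on days 0, 1, 2 and 3, with 2 libraries a group. A screen in E5.0 Epi held 10 batches with 40 knockout groups of 39 knockouts, each set against the controls of its batch. Those knockouts were Aurkb, Nelfb, Snai1, Ss18 and Ssrp1 in batch 1, Ascl2 (2 libraries), Cxxc1, Elf5, Ets2, Lmo2, Mcrs1 and Suz12 in batch 2, and Atrx, Cbx2, Cbx7, Jarid2 and Rnf2 in batch 3. Batch 4 had Kdm6a, Myc, Otx2 and Tfap2c, batch 5 Ezh2, Kdm6b and Zfp57, batch 6 Zbtb17, batch 7 Bend3 (2 controls), and batch 8 Bend3 again, with titles that give E6.0 where the stage label gives E5.0. Batch 9 had Ovol2, Smad2, Sox4, Wt1 and Zfp281, and batch 10 Chd4, Fos, Gtf2b, Hsf2, Junb, Mbd3, Mta2 and an Hdac1 Hdac3 double knockout. The labels do not say whether libraries of a group came from separate embryos, so the p-values here reflect how far libraries spread, which may be technical.

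Libraries summed to between 984852 and 993453 TPM (transcript abundance scaled for gene length and to a fixed library total), and their read depth is unknown. Genes at 1 TPM or more numbered 7236 to 11315 in the screen but 3986 to 4952 in the Zbtb17 E4.5 table, whose libraries of a group correlated at only 0.647 to 0.689 across genes. The 4 EB day 0 libraries also stood apart: they had 5970 to 6983 genes at 1 TPM against 12807 to 13512 on later days, and ribosomal protein genes took 53.4 to 55.7% of their TPM against 22 to 27.1%. The first 2 PrE control libraries correlated at 0.996 and the 3 Aurkb knockout libraries at 0.998 to 0.999, so each of these sets was counted as 1 library. Of 41 pairs of a targeted gene and its knockout in the screen, with Bend3 counted in both its batches, 30 had a lower mean in the knockout, 8 of them past the test, and 11 a higher mean, 3 of them past the test, so mRNA level did not mark every knockout. Gata6, a PrE factor, was at 16.2 to 26.8 TPM in the PrE controls of the Suz12 Eed table and at 0 TPM in its Epi controls, while Pou5f1, an epiblast factor, was at 0.144 to 4.99 TPM in those PrE controls and 43.4 to 138 TPM in the Epi controls. The listed PrE markers summed to 5704 to 6290 TPM in PrE controls and 408 to 629 TPM in Epi controls. The listed epiblast markers did not follow the labels, summing to 10155 to 13607 TPM in PrE controls and 7736 to 10143 TPM in Epi controls.

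Cdk1 is the kinase that drives entry into mitosis and Ccnb1 (cyclin B1) its activating subunit. Aurka and Tpx2, which activates it at the spindle, build the spindle poles, Aurkb works in the chromosomal passenger complex at centromeres, and Plk1 acts at centrosomes and kinetochores. Bub1b (BubR1) is a spindle checkpoint protein that holds back Cdc20, the activator of the anaphase promoting complex, which destroys cyclin B1. Nusap1 bundles spindle microtubules and Cenpf links kinetochores to them. Transcripts of such genes peak in G2 and M phase, when the MuvB complex with B-Myb and FoxM1 binds promoters through CHR elements (TTTGAA or TTCGAA), together with NF-Y at CCAAT boxes. In bulk libraries, fewer dividing cells and less RNA per cell cannot be told apart.

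On the mm10 build, Cdc20 lies at chr4:118432901-118437352 on the minus strand, Plk1 at chr7:122159439-122169873 on the plus strand, Cdk1 at chr10:69335146-69352938 on the minus strand and Bub1b at chr2:118598211-118641591 on the plus strand. Nusap1 lies at chr2:119618298-119651244 (plus), Tpx2 at chr2:152847964-152895321 (plus), Aurka at chr2:172356190-172370535 (minus), Cenpf at chr1:189640606-189688086 (minus), Ccnb1 at chr13:100778650-100786570 (minus) and Aurkb at chr11:69045647-69051664 (plus). The 10 genes are thus on 7 chromosomes, with 4 on chromosome 2. Promoters of 4 are shown because their transcripts passed the test in the most comparisons (Cdc20 in 32 and Plk1 in 22 of 56) and in the fewest (Cdk1 in 8 and Bub1b in 11, level with Nusap1 and first by alphabet). Each runs 5′ to 3′ on the gene's strand from 250 bases before to 50 bases after the transcription start, from RefSeq on GRCm38.p6, with TTTGAA and TTCGAA in capitals on whichever strand they were found. CCAAT boxes are in capitals too, and one on the opposite strand reads ATTGG. The windows are chr4:118437294-118437593 (minus) for Cdc20, chr7:122159185-122159484 (plus) for Plk1, chr10:69352863-69353162 (minus) for Cdk1 and chr2:118597961-118598260 (plus) for Bub1b.

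Cdc20: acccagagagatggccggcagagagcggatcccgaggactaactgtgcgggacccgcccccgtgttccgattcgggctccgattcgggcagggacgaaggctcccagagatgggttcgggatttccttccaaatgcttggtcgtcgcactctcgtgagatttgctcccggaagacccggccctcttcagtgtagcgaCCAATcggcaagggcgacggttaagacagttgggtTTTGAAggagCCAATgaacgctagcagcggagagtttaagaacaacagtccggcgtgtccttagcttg
Plk1: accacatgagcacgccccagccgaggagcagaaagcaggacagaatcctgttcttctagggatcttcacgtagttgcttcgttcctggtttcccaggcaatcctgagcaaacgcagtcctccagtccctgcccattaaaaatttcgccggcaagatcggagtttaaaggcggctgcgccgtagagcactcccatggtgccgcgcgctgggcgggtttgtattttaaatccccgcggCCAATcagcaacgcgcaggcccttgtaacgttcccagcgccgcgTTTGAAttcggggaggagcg
Cdk1: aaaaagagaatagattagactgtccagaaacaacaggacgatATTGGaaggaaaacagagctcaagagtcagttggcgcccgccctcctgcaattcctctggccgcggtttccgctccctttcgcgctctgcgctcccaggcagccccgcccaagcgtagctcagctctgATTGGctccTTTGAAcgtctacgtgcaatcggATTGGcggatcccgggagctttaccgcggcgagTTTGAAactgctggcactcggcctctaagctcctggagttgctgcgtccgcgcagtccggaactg
Bub1b: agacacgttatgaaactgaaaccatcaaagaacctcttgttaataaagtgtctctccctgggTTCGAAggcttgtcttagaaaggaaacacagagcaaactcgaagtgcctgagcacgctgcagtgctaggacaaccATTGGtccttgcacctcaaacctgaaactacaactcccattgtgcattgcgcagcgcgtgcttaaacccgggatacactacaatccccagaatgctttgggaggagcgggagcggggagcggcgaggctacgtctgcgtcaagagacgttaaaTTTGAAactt

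Entries were found for 8 members, which leaves Tpx2 and Aurkb. TTTGAA or TTCGAA was present in 6 of the 8 windows, against 19.2% of 32851 promoters of the same length, and CCAAT on either strand in 7 of 8, against 37.4%. In Cdc20 the TTTGAA ends 13 bases before the start, between CCAAT boxes on either side. Cdk1 holds 2 TTTGAA and 3 CCAAT matches. Plk1 and Bub1b have TTTGAA after the start, and Bub1b has a TTCGAA as well. Neither set of letters was found in the Nusap1 window, and Ccnb1 holds 2 CCAAT boxes without TTTGAA or TTCGAA. No matches overlapped, and a match is a description of letters, not a site.

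In the 29 control Epi libraries of the screen, Cdc20 and Ccnb1 were the most abundant members and Cenpf the least. Median levels, with the lowest and highest library, were 721 TPM (296 to 1132) for Cdc20, 562 TPM (298 to 870.1) for Ccnb1 and 222 TPM (141 to 400.3) for Aurka. Cdk1 had a median of 124 TPM (70.9 to 173), Plk1 105 TPM (39.6 to 283) and Aurkb 77.7 TPM (50.6 to 269). Tpx2 followed at 49.8 TPM (28.3 to 106), Nusap1 at 35.0 TPM (17.1 to 72.6), Bub1b at 21.7 TPM (9.75 to 129) and Cenpf at 13.3 TPM (1.97 to 32.8). Ranges of all neighbours in this order overlapped. Levels differed between batches: the mean of the controls of a batch differed 1.77-fold for Cdk1 between the lowest and the highest batch, 3.34-fold for Cdc20, 5.57-fold for Plk1, 7.74-fold for Bub1b and 11.7-fold for Cenpf. For Plk1 and Bub1b the highest was batch 8, whose titles give E6.0, so batch and stage cannot be told apart there. Within groups of 3 libraries the median coefficient of variation was 6.1% for Cdk1, 6.27% for Ccnb1 and 6.94% for Cdc20, but 19.7% for Nusap1 and 25% for Bub1b, so small changes of the last pair could not be resolved.

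The Suz12 Eed table asks what loss of Polycomb repressive complex 2 does in each lineage. In it 6 of 10 mitosis genes were lower in control PrE than in control Epi and none was higher. That share is close to the 56.4% of all genes that passed the test (37.9% lower, 18.5% higher). Tests are limma on log2(TPM + 1) with Benjamini-Hochberg adjustment over all genes of a comparison and a threshold of 0.05, and every log2 value below is on that scale, which understates changes of low genes. Plk1 was at 12.5, 11.3 and 6.75 TPM in control PrE, against 105, 189 and 117 TPM in control Epi. That is a log2 difference of -3.74 ± 0.32 (SE, adjusted p = 2.176e-07), the most negative among the members, with no overlap between the lineages. Cdc20 was at 156, 181 and 149 TPM in control PrE, against 867, 856 and 840.2 TPM in control Epi (log2 difference -2.42 ± 0.15, adjusted p = 8.633e-09). Aurkb was at 10.3, 11 and 20 TPM in control PrE, against 98.3, 109.7 and 99.5 TPM in control Epi (log2 difference -2.73 ± 0.32, adjusted p = 5.464e-06). Bub1b averaged 7.11 ± 0.233 TPM in control PrE (SD, n = 2) and 36.7 ± 9.96 TPM in control Epi (n = 3), and Aurka 53.7 ± 2.11 and 215 ± 26.3 TPM in the same order. The cyclin subunit Ccnb1 differed less, at 411 ± 18 TPM in control PrE and 606 ± 23.4 TPM in control Epi (log2 difference -0.56, adjusted p = 0.003348). Cdk1, Tpx2, Nusap1 and Cenpf did not pass, with log2 differences of -0.16 (adjusted p = 0.398), -0.50 (0.051), -0.51 (0.0768) and 0.24 (0.426). The median log2 difference of the members was -1.27, against -0.46 over all genes tested. Of 80 further mitosis genes, 44 were lower and 6 higher in control PrE, and of 26 S phase genes 22 were lower, such as Ccne1 (cyclin E1) at 11.3 ± 3.15 TPM in control PrE and 358 ± 26.1 TPM in control Epi.

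In Epi, loss of Suz12 and Eed lowered 2 of the 10 members, where 9.13% of all genes passed (4.65% lower, 4.48% higher). Cdc20 fell to 491, 677 and 603 TPM in knockout Epi, against the 3 control values given above, a log2 change of -0.55 ± 0.14 (adjusted p = 0.02146). Aurkb fell to 37.2, 56.5 and 51.2 TPM (48.3 ± 9.99), against 103 ± 6.28 TPM in control Epi (SD, n = 3 each), a log2 change of -1.09 ± 0.29 (adjusted p = 0.02931). Neither gene's groups overlapped, but when 1 of the 6 Epi libraries was left out Aurkb lost its call in 5 of 6 cases (highest adjusted p = 0.11) and Cdc20 in 4 of 6 (0.0836). Plk1 was at 57.6, 95.8 and 83.5 TPM in knockout Epi, against 105, 189 and 117 TPM in control Epi, and did not pass (log2 change -0.77 ± 0.29, adjusted p = 0.1102). Ccnb1 at 400.3, 524 and 477 TPM in knockout Epi, against 581, 608 and 628 TPM in control Epi, was also short of the threshold (-0.38 ± 0.13, adjusted p = 0.06878). Cdk1 leaned the other way without passing, at 134 ± 7.29 TPM in knockout Epi and 114 ± 5.99 TPM in control Epi (adjusted p = 0.3207). The other members did not pass, with log2 changes of -0.44 for Nusap1, -0.43 for Bub1b, -0.34 for Tpx2, -0.24 for Aurka and -0.01 for Cenpf. The members' median log2 change was -0.41, against -0.13 over all genes. Among the further mitosis genes 6 of 80 fell and none rose, including the kinesin Kif20a (47.0 ± 10.5 TPM in knockout Epi, 103 ± 12.8 TPM in control Epi) and the condensin subunit Ncapg (log2 change -1.10). Of the S phase genes 13 of 26 fell, among them the replicative helicase subunits Mcm2 (-1.74), Mcm7 (-1.27) and Mcm6 (-1.18).

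In PrE 3 of 10 members were higher in the same knockout and none lower. That share is close to the 26.6% of all genes that passed (21.4% higher, 5.18% lower). Plk1 rose to 29, 33.7 and 52.9 TPM in knockout PrE, against 12.5, 11.3 and 6.75 TPM in control PrE, a log2 change of 1.94 ± 0.32 (adjusted p = 0.0006372). Cdc20 rose to 263, 284 and 324 TPM, against 156, 181 and 149 TPM in control PrE (0.86 ± 0.15, adjusted p = 0.0009097). Aurkb rose to 20.6, 46.9 and 39.5 TPM, against 10.3, 11 and 20 TPM in control PrE (1.15 ± 0.32, adjusted p = 0.01668), with the lowest knockout library just above the highest control, and lost its call in 3 of 5 cases when 1 library was left out (highest adjusted p = 0.185). Even after these rises, all 3 genes stayed below the Epi knockout mean: Plk1 at 38.6 ± 12.7 TPM in knockout PrE and 79 ± 19.5 TPM in knockout Epi, for example, a gap not tested. Aurka was at 66.7, 81.1 and 118 TPM in knockout PrE, against 47.6, 56.8 and 55.2 TPM in control PrE, and did not pass (0.67 ± 0.27, adjusted p = 0.08004). Nusap1 pointed down, at 16.9, 23.5 and 24.1 TPM in knockout PrE against 31.1, 31.1 and 33.2 TPM in control PrE (-0.58 ± 0.23, adjusted p = 0.08082). Log2 changes of the rest, none past the test, were 0.34 for Bub1b, 0.16 for Ccnb1, 0.01 for Cdk1, -0.22 for Tpx2 and -0.34 for Cenpf. The members' median was 0.25, below the 0.40 of all genes. Actb was at 39425 to 50018 TPM in control PrE and 11649 to 15687 TPM in knockout PrE. Genes at 1 TPM numbered 9740 to 9871 in control PrE and 10720 to 11188 in knockout PrE. The part of these differences in comparisons with control PrE was not tested. Of the 80 further genes 6 rose and 3 fell. Ube2s, which extends ubiquitin chains for the anaphase promoting complex, rose to 28.2 ± 9.21 TPM in knockout PrE, against 7.68 ± 3.38 TPM in control PrE. Pttg1 (securin), which holds back the separation of sister chromatids until anaphase, fell to 276 ± 24.8 TPM, against 631 ± 24.0 TPM in control PrE. Of 26 S phase genes 9 rose and 1 fell, with Ccne1 at 49.8 ± 8.78 TPM in knockout PrE and 11.3 ± 3.15 TPM in control PrE.

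The knockout effect itself differed between lineages for 3 members, where 19.1% of all genes passed this interaction test, 15% with a positive and 4.16% with a negative value. The effect in PrE minus that in Epi was 2.71 ± 0.43 on the log2 scale for Plk1 (adjusted p = 0.0009344), 2.24 ± 0.43 for Aurkb (0.002902) and 1.41 ± 0.20 for Cdc20 (0.0004908). For Aurka and Ccnb1 it was 0.92 and 0.55, with adjusted p of 0.0916 and 0.0538, and for Bub1b 0.77 (0.149). Tpx2, Nusap1, Cdk1 and Cenpf lay between 0.12 and -0.33 without passing. The median interaction of the members was 0.66, against 0.45 over all genes, and 13 of the 80 further mitosis genes and 19 of the 26 S phase genes had a positive one past the test, with 2 and 0 negative. Suz12 and Eed transcripts themselves were lower in both lineages, Eed for instance at 38.9 to 51.8 TPM in knockout Epi and 157 to 204 TPM in control Epi. The 12 trophoblast markers summed to 5899 to 6898 TPM in knockout Epi and 1608 to 1692 TPM in control Epi, with 6 of 12 higher and 1 lower, and to 2161 to 2262 TPM in knockout PrE and 625 to 939 TPM in control PrE, with 3 of 9 tested higher. Cdx2, a defining trophoblast factor, was at 0 to 2.74 TPM in these libraries. The 12 epiblast markers summed to 6434 to 7140 TPM in knockout PrE and 10155 to 13607 TPM in control PrE. Their part in the results was not tested.

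**Figure D1:**
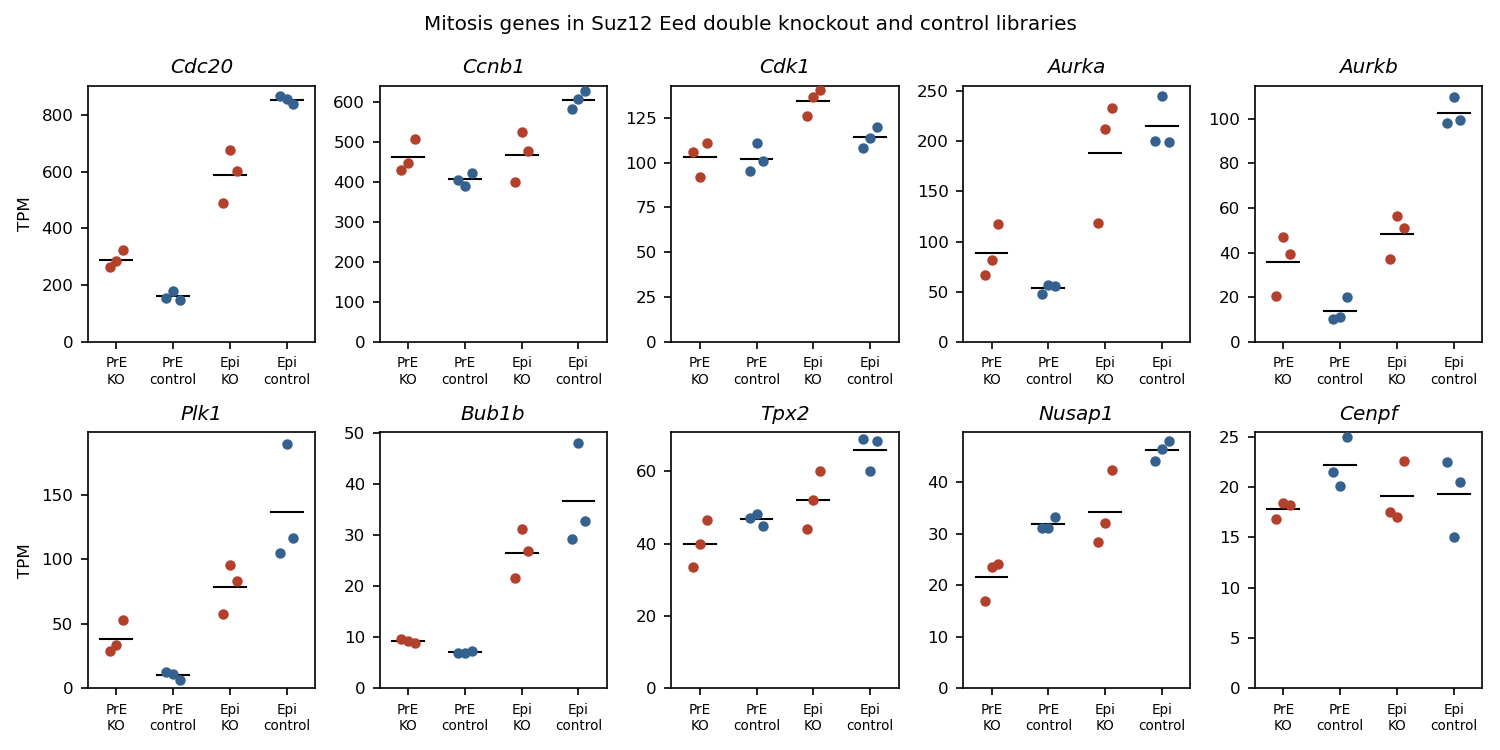
Level in TPM of each of the 10 mitosis genes in the Suz12 Eed table, with a point per library and a bar at each group's mean, for PrE knockout, PrE control, Epi knockout and Epi control. Plk1, Cdc20 and Aurkb lie higher in knockout than in control PrE and lower in knockout than in control Epi, and PrE controls lie below Epi controls past the test for 6 of the genes.

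GSK-J4 acts on the opposing side of the same histone mark. At E4.5 it lowered Cdc20 alone of the 10 members, where 1.15% of all genes passed, 0.611% higher and 0.541% lower, and without the filter on low values not even Cdc20 passed. Cdc20 was at 381, 344 and 397 TPM with GSK-J4, against 724, 693 and 660.4 TPM in controls, means of 374 ± 27.4 and 693 ± 32.0 TPM (SD, n = 3 each) and a log2 change of -0.89 ± 0.13 (adjusted p = 0.005495). The 2 groups lay far apart relative to their spread. Plk1 at 37, 71.7 and 72.3 TPM with GSK-J4, against 113, 114 and 95 TPM in controls, and Bub1b at 3.4, 13.8 and 3.41 TPM, against 42.3, 17.1 and 18.4 TPM, did not overlap between groups either, but did not pass (log2 changes -0.88 and -1.91, adjusted p of 0.303 and 0.316). Aurkb was the opposite kind of case, with a treated range of 63.7 to 174 TPM around the control range of 105 to 127 TPM. Ccnb1, Aurka, Nusap1, Tpx2, Cdk1 and Cenpf overlapped between the groups, with log2 changes of -0.36, -0.55, -0.46, -0.12, -0.09 and 0.05. The members' median log2 change was -0.41 and that of all genes 0.01. None of 79 further mitosis genes and none of 26 S phase genes passed limma's adjusted threshold, with 7 in each list at an unadjusted p under 0.05. The epiblast marker sum was 28066 to 29433 TPM with GSK-J4 and 20843 to 21825 TPM in controls. The PrE sum was 6614 to 7148 TPM with GSK-J4 and 5218 to 5403 TPM in controls, and the trophoblast sum 1492 to 1582 TPM with GSK-J4 and 1951 to 2054 TPM in controls. Their part in the result was not tested.

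At E5.0, 2 of 10 members were higher and 1 lower with GSK-J4, a share close to the 28.3% of all genes that passed (16.6% higher, 11.7% lower). Nusap1, the microtubule bundler, rose to 108, 81.4 and 69.2 TPM with GSK-J4, against 30.1, 33.8 and 32.8 TPM in controls, a log2 change of 1.37 ± 0.20 (adjusted p = 0.002187). Ccnb1 rose to 717, 633 and 643 TPM, against 570.1, 529 and 498 TPM in controls (0.32 ± 0.09, adjusted p = 0.02756). Cdc20 fell to 934, 738 and 632 TPM, against 1066, 1165 and 1096 TPM in controls (-0.55 ± 0.13, adjusted p = 0.01922), so it was lower with GSK-J4 at both stages, in separate tables with separate controls. Without any of the 3 controls in turn Cdc20 lost its call (highest adjusted p = 0.0967), and Ccnb1 lost it in 3 of 6 cases (0.128). Plk1, at 259.8, 214 and 222 TPM with GSK-J4 against 203, 186 and 187 TPM in controls, and Bub1b, at 18.6, 21.4 and 28.5 TPM against 30.2, 34.8 and 30.1 TPM, lay apart without passing (adjusted p of 0.116 and 0.19). Cenpf did so too, at 13.5 to 19.2 TPM with GSK-J4 and 11.8 to 12.3 TPM in controls, while Aurka, Tpx2, Cdk1 and Aurkb overlapped, with log2 changes of 0.22, 0.08, 0.08 and -0.06. Of 79 further mitosis genes 4 rose and 8 fell. Fzr1 (Cdh1), which takes over from Cdc20 as activator of the anaphase promoting complex, rose to 43.2 ± 4.40 TPM with GSK-J4, against 17.0 ± 3.27 TPM in controls. Cks1b, a Cdk-binding subunit, fell to 935 ± 88.1 TPM, against 1543 ± 38.5 TPM in controls. S phase genes moved one way, with 16 of 26 lower and none higher (median log2 change -0.60, against 0.12 over all genes), among them Ccne1 at 51.9 ± 11.0 TPM with GSK-J4 and 384 ± 21.8 TPM in controls, and Rrm2, a ribonucleotide reductase subunit, at 202 ± 37.3 and 790 ± 41.4 TPM in the same order. All 13 PrE markers rose, their sum being 7303 to 8059 TPM with GSK-J4 and 880 to 923 TPM in controls, where Gata6 was at 0. The trophoblast sum was 2994 to 3144 TPM with GSK-J4 and 4108 to 4386 TPM in controls. Their part in these changes was not tested.

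In the dTAG table, which asks what acute loss of Zbtb17 protein does at E5.0, 2 of 10 members were higher and none lower, where 11.7% of all genes passed (7.2% higher, 4.49% lower). Plk1 rose to 141, 115 and 162 TPM with dTAG, against 82.1, 108 and 75.1 TPM in controls (0.66 ± 0.17, adjusted p = 0.03617). Aurka rose to 228, 243 and 261 TPM, against 169, 189 and 207 TPM in controls (0.37 ± 0.11), with an adjusted p of 0.04997 at the edge of the threshold. Without 1 library Aurka lost its call in 6 of 6 cases (highest adjusted p = 0.17) and Plk1 in 4 of 6 (0.142), and neither passed under quantile normalization, with a pseudocount of 0.1 or without the filter on low values. Cdc20, at 1168, 1009 and 1222 TPM with dTAG and 1038, 1015 and 946 TPM in controls, overlapped between the groups. The rest did not pass either, with log2 changes of 0.30 for Aurkb, 0.28 for Nusap1, 0.27 for Tpx2, 0.21 for Bub1b, 0.09 for Cenpf, 0.04 for Cdk1 and -0.07 for Ccnb1. The members' median log2 change was 0.24, against 0.14 over all genes. Of the 80 further genes 8 rose and 4 fell. Fzr1 rose here as well, to 51.1 ± 7.65 TPM with dTAG, against 15.0 ± 4.85 TPM in controls, and Pttg1 fell to 345 ± 26.2 TPM, against 558 ± 12.8 TPM in controls. Zbtb17 mRNA was at 5.77 to 6.94 TPM with dTAG and 1.67 to 5.20 TPM in controls, which says nothing of a protein-level loss. The PrE markers summed to 2304 to 2412 TPM with dTAG and 708 to 842 TPM in controls, and the trophoblast markers to 3694 to 4110 and 3080 to 3267 TPM in the same order. Their part in these changes was not tested.

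In the Zbtb17 E4.5 table, the one with the fewest genes at 1 TPM, only 7 members passed the filter and limma called none of them, where 0.131% of 4576 genes passed. No member had an unadjusted p under 0.05, against 370 of all genes. Cdc20 was at 83.5, 91 and 28.2 TPM in the libraries titled knockout, against 159, 106 and 43.9 TPM in controls, and Ccnb1 at 153, 96.8 and 154 TPM, against 249, 234 and 22.8 TPM, with ranges that overlapped. So did those of Cdk1, Cenpf, Bub1b, Aurka and Tpx2, whose log2 changes of -1.22 to 1.11 had SE of 1.02 to 2.04, and Nusap1 was not tested. Plk1 was listed at 0 in 5 of the 6 libraries and Aurkb in 5 of 6, as was the epiblast factor Pou5f1 in all 3 knockout libraries, so these zeros do not show that a gene was silent.

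**Figure D2:**
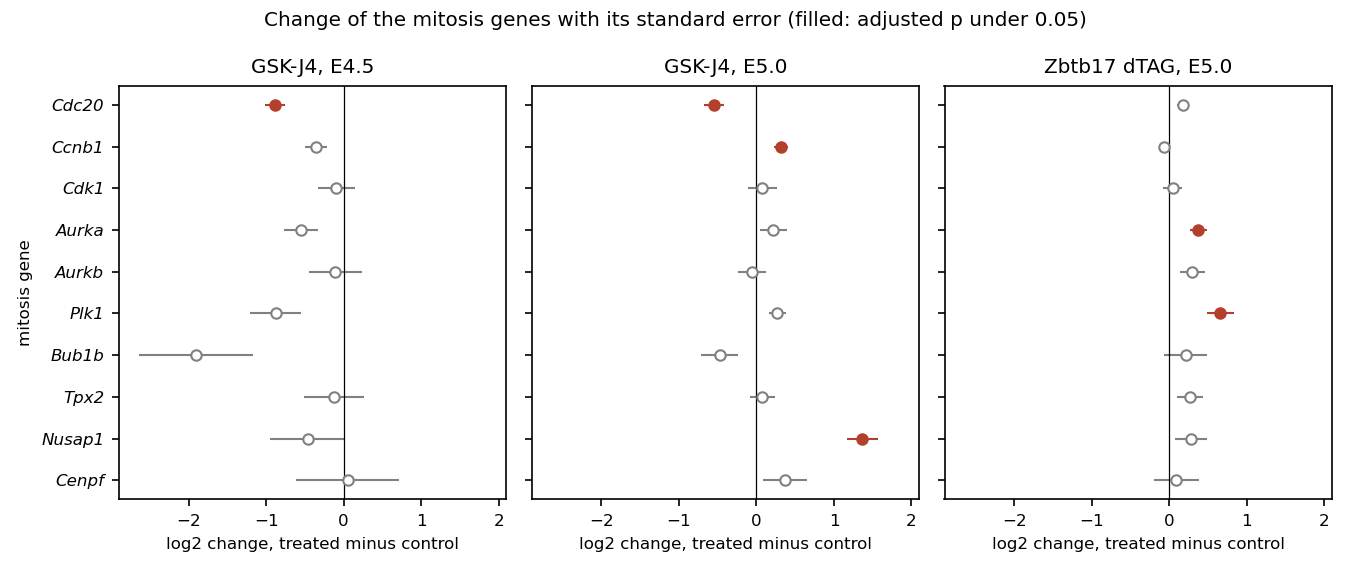
Log2 change of the 10 mitosis genes, on the log2(TPM + 1) scale with bars of ± 1 SE, for GSK-J4 against control at E4.5, GSK-J4 against control at E5.0 and Zbtb17 dTAG against control at E5.0. Filled points have an adjusted p under 0.05: Cdc20 at both GSK-J4 stages, Nusap1 and Ccnb1 at E5.0, and Plk1 and Aurka with dTAG.

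In embryoid bodies, all 10 genes were higher on days 1, 2 and 3 than on day 0 in wild type by limma on the deposited TPM, where 97.6, 97.5 and 97.7% of all genes passed on those days (91.4, 90.7 and 90.4% higher, 6.24, 6.77 and 7.31% lower), although with quantile normalization Cenpf was lower on each later day, Cdk1 on days 1 and 2 and Nusap1 on day 1. With that scaling Cdk1 on day 3 (adjusted p = 0.54) and Nusap1 on day 2 (0.955) did not pass. Cdc20 in wild type was at 5.31 and 4.3 TPM on day 0, 459 and 469 TPM on day 1, 508 and 523 TPM on day 2 and 404 and 437 TPM on day 3. Plk1 in wild type was at 2.17 and 1.84 TPM on day 0, 156 and 156 TPM on day 1, 210.0 and 216 TPM on day 2, and 219 and 226 TPM on day 3. Over all genes the median log2 difference of day 1 from day 0 was 2.80, and that of the members 4.78. Members other than Cdc20 and Plk1 had log2 differences on day 1 between 1.90 for Cenpf and 5.18 for Bub1b, with Cdk1 at 2.59, Nusap1 at 3.26, Ccnb1 at 3.75, Aurka at 4.64, Aurkb at 4.93 and Tpx2 at 5.06. The day 0 libraries also had Gapdh at 75.1 to 143.6 TPM, against 4044 to 6898 TPM on later days, and Pou5f1 at 13.36 to 21.5 TPM, against 1719 to 2443 TPM, values that touch every comparison with day 0 and whose part in it was not tested.

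After day 0 the mitosis genes called in the Zbtb17 knockout were all lower. The titles give all knockout libraries the same name, so a difference between lines cannot be told apart from the knockout. On day 1, 6 of 10 were lower and none higher (36.5% of all genes passed, 20% lower and 16.5% higher), on day 2 again 6 (42.8%, 24.9% lower and 17.9% higher), and on day 3, 8 (55.1%, 34.2% lower and 20.9% higher). The day 1 count was 2 to 4 when 1 library was left out, with 2 without wild-type library 1. Cdc20 then lost its call in 4 of 4 cases, Ccnb1 in 3 of 4 and Nusap1 in 2 of 4, while on day 2 Tpx2 lost its call in 3 of 4 and on day 3 all 8 calls were kept. The members' median log2 changes on those days were -0.20, -0.22 and -0.32, against -0.02, -0.07 and -0.10 over all genes. Cenpf, the kinetochore linker, moved furthest. It was at 14.4 and 13.7 TPM in knockout and 19.2 and 17.8 TPM in wild type on day 1, at 11.8 and 13.5 TPM in knockout and 23.4 and 21.5 TPM in wild type on day 2, and at 12 and 11.5 TPM in knockout and 24.5 and 22.1 TPM in wild type on day 3. Its log2 change was -0.37 ± 0.09 on day 1, -0.78 ± 0.09 on day 2 and -0.93 ± 0.09 on day 3 (adjusted p = 3.136e-06 on day 3), with a wider gap on each later day. Aurkb, the passenger complex kinase, was at 90.3 and 86.4 TPM in knockout and 101 and 100.3 TPM in wild type on day 1, which did not pass, and at 82.4 and 83.6 TPM in knockout and 119 and 117 TPM in wild type on day 3, a log2 change of -0.51 ± 0.07 (adjusted p = 0.0001285). Plk1 did not pass on day 1, at 161 and 153 TPM in knockout and 156 and 156 TPM in wild type. By day 3 it was at 162 and 170.2 TPM in knockout and 219 and 226 TPM in wild type (-0.42 ± 0.07, adjusted p = 0.0002755). Aurka passed on each of these days, with log2 changes of -0.23, -0.25 and -0.15 on days 1, 2 and 3 (adjusted p = 0.001146, 0.0005235 and 0.007977). Nusap1 on day 3 was at 40.2 and 45.8 TPM in knockout and 61.2 and 59.3 TPM in wild type (-0.48 ± 0.08, adjusted p = 0.0002503). Cdk1 passed only on day 3, at 94.8 and 97 TPM in knockout and 126 and 118 TPM in wild type (-0.34 ± 0.06). Cdc20, lower on days 1 and 2, did not pass on day 3 (adjusted p = 0.0808), and Bub1b passed on day 2 alone (-0.35 ± 0.08). Tpx2 was lower on each of the 3 days (-0.30, -0.19 and -0.29) and Ccnb1 on days 1 and 3 (-0.19 and -0.29).

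On day 0, at low levels, 4 members were higher in the knockout and none lower, which is below the share of all genes that were higher (59.8% of all genes passed, 47.8% higher and 12% lower). The members' median log2 change was 0.09, against 0.23 over all genes. Plk1 was at 3.65 and 3.09 TPM in knockout and 2.17 and 1.84 TPM in wild type (log2 change 0.54 ± 0.07, adjusted p = 3.283e-05). Cdc20, Aurkb and Tpx2 also passed, with log2 changes of 0.28, 0.20 and 0.19, but those of Aurkb (-0.06) and Tpx2 (-0.08) turned negative with quantile normalization, and a fit of the day 0 libraries alone called 1 member. The knockout effect varied with day for 9 of 10 members by limma's F test, Ccnb1 being the exception, where 60.1% of all genes passed. With quantile normalization 4 did, Plk1, Aurkb, Cdk1 and Cenpf, and without 1 library Bub1b lost its call in 13 of 16 cases (highest adjusted p = 0.103) and Cdk1 in 5 of 16 (0.0973). Without day 0, a choice made after seeing how those libraries stood apart, 5 did: Plk1 (adjusted p = 0.000521), Aurkb (0.00242), Cdk1 (0.00491), Cenpf (0.00882) and Bub1b (0.0141), where 6162 of 14631 genes passed. Zbtb17 mRNA was lower in the knockout on days 1 to 3, with means of 10.0, 13.4 and 13.5 TPM in knockout and 22.1, 21.9 and 17.7 TPM in wild type. Of the 80 further mitosis genes, 35 fell and 1 rose on day 1, 43 fell and 4 rose on day 2, and 41 fell and 8 rose on day 3. Pttg1 was at 58.2 ± 4.52, 45.7 ± 2.70 and 56.3 ± 0.522 TPM in knockout on days 1, 2 and 3, and at 119 ± 2.44, 137 ± 7.64 and 196 ± 21.8 TPM in wild type. Mybl2 (B-Myb), a transcription factor of late cell cycle genes, went the other way on day 3, at 190 ± 4.33 TPM in knockout and 72.1 ± 2.33 TPM in wild type. S phase genes on day 3 were also split, 9 higher and 4 lower of 26, with Rrm2 at 293 ± 10.8 TPM in knockout and 213 ± 14.1 TPM in wild type. Trophoblast markers summed to 296 to 320 TPM in knockout and 47.5 to 50.7 TPM in wild type on day 1, to 341 to 347 TPM in knockout and 86.0 to 94.0 TPM in wild type on day 2, and to 317 to 335 TPM in knockout and 244 to 245 TPM in wild type on day 3. On day 1 the keratins Krt8 and Krt18 averaged 119 and 112 TPM in knockout and 8.78 and 15.4 TPM in wild type. On day 3 they averaged 98.2 and 107 TPM in knockout and 67.1 and 75.1 TPM in wild type. Eomes and Cdx2 were lower on day 3, at 9.48 and 1.30 TPM in knockout, against 86.7 and 2.57 TPM in wild type. The part of the trophoblast markers in these changes was not tested.

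**Figure D3:**
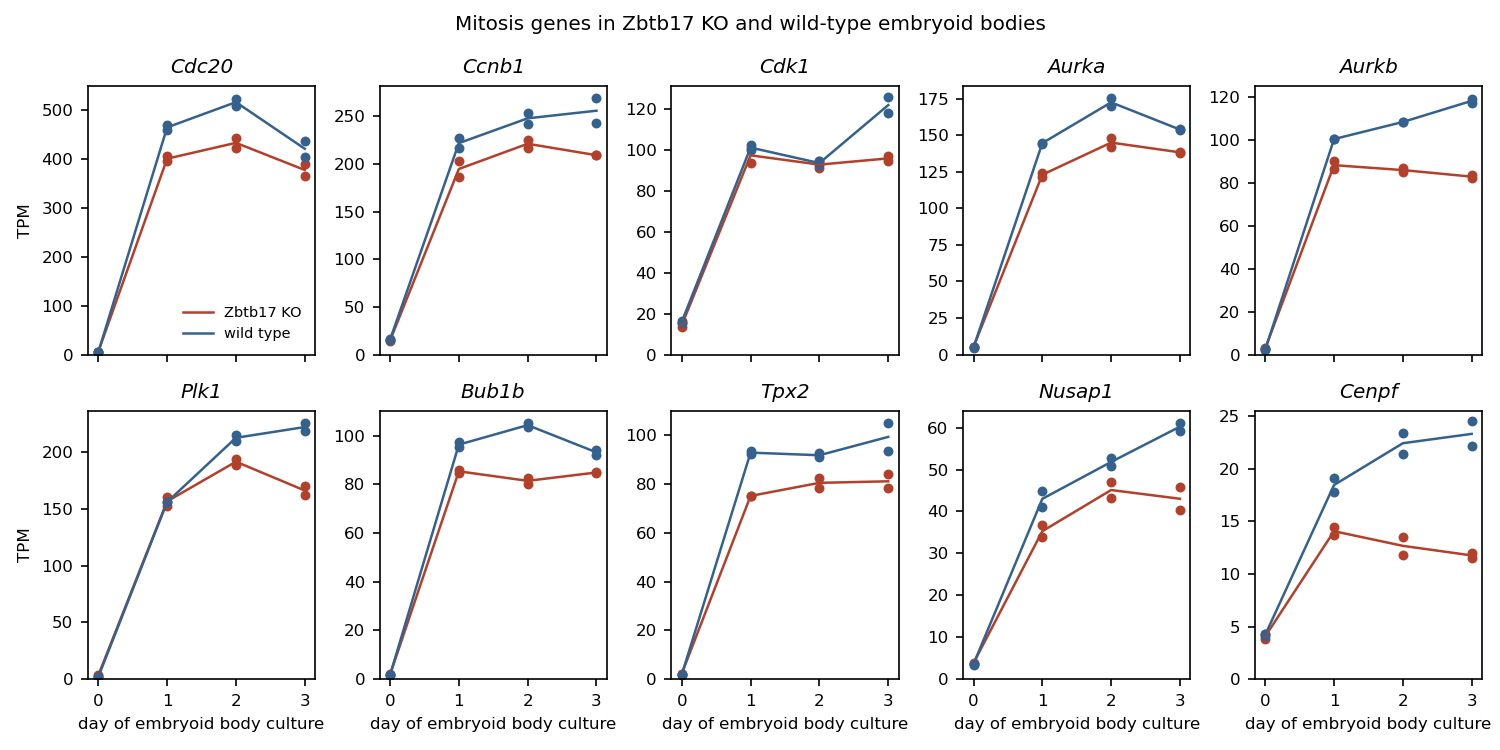
Level in TPM of the 10 mitosis genes in embryoid bodies on days 0 to 3, with a point per library and lines through the means of Zbtb17 knockout and wild type. Levels are lowest on day 0 in both genotypes, and on day 3 the knockout lies below wild type, with Cenpf at 12 and 11.5 TPM against 24.5 and 22.1 TPM.

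The screen asked which of 39 knockouts changes Epi gene expression. Of 400 pairs of a member and a knockout, 80 passed the test (20%), 33 higher and 47 lower, where 10.1% of all gene and knockout pairs passed, 5.02% higher and 5.07% lower. Leaving the same replicate number out of nearly every group gave 52 to 60 calls, with 16 higher and 36 lower without replicate 1. Knockouts of a batch share controls, so calls within a batch are not independent. Calls were uneven: 24 knockouts had at least 1 and 16 had none, and 31 of the 80 calls fell in 5 knockouts. In those 16, limma called 0 of 160 pairs, with 9 at an unadjusted p under 0.05. Calls in a knockout were only higher in 9 and only lower in 13, while Bend3 in batch 7 and Elf5 had both. Batches differed in direction too: batch 1 had 11 higher calls, batch 3 had 3 and batch 4 had 16, with none lower, while batch 2 had 1 higher and 19 lower, batch 5 had 17 lower and batch 6 had 4 lower, with none higher in the last pair. Of the 10 batches, batch 4 controls had the lowest mean Tpx2 (32.1 TPM) and Nusap1 (22.0 TPM). Batch 1 controls were lowest for Aurka (178 TPM) and Plk1 (46.2 TPM), and batch 3 controls for Cdc20 (314 TPM). Median batch means were 54.45, 35.9, 218, 122 and 794 TPM in that order. Batch 9 controls were highest for Cdc20 (1048 TPM), with no member called in that batch. The part of control levels in these directions was not tested. The spread in these fits was shared by the whole screen. Fitting each batch on its own kept 58 of the 80 calls, and each of the 22 that did not survive it is named below.

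**Figure D4:**
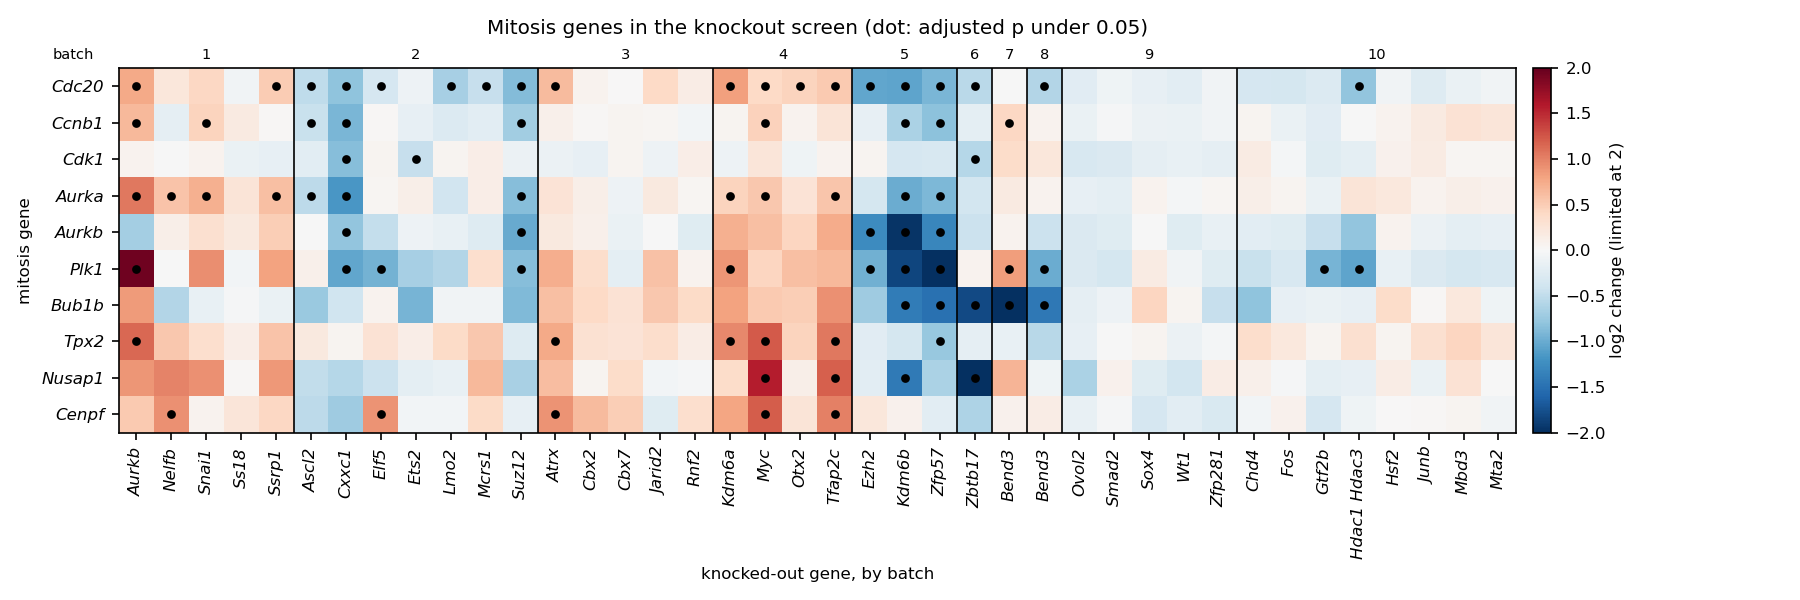
Log2 change, knockout minus control on the log2(TPM + 1) scale, of the 10 mitosis genes (rows) in the 40 knockout comparisons of the screen (columns, grouped by batch), with colour limited at 2 in either direction and dots at an adjusted p under 0.05. Dots in batches 1 and 4 mark higher levels and those in batch 5 lower levels, and Cdc20 carries the most dots.

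By role, the activator Cdc20 was called most often, in 19 of 40 knockouts (47.5%, 7 higher and 12 lower). The kinases Aurka (7 higher, 5 lower) and Plk1 (3 higher, 9 lower) followed at 30% each and cyclin Ccnb1 (4 higher, 5 lower) at 22.5%. Its partner Cdk1 was called in 3 knockouts (7.5%), all lower. The spindle gene Tpx2 was higher in 5 and lower in 1, and Cenpf higher in 5 and lower in 0. Aurkb and Bub1b were each lower in 5 and higher in none, and Nusap1 was higher in 2 and lower in 2. Spread between libraries also differed, with a median coefficient of variation of 25% for Bub1b, 19.7% for Nusap1, 13.1% for Plk1 and 6.1% for Cdk1. Its part in these counts was not tested. Extremes were a log2 change of -2.20 for Nusap1 in the Zbtb17 knockout, -2.11 for Bub1b in Bend3 of batch 7, -2.04 for Plk1 in Zfp57 and 1.95 for Plk1 in Aurkb. Cdk1 ranged only between -0.85 in Cxxc1 and 0.37 in Bend3 of batch 7.

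The Kdm6b knockout, which lacks an H3K27 demethylase, had 7 members lower and none higher, where 22.7% of all genes passed (16.7% lower), and so had the knockout of Zfp57, a zinc finger protein that guards imprints (16.8%, 11.5% lower). Both share the batch 5 controls, which were themselves wide: Plk1 was at 137, 162 and 62 TPM in them. Plk1 was at 25.6, 31.2 and 35.4 TPM in Kdm6b knockouts (log2 change -1.84 ± 0.29, adjusted p = 2.404e-07) and at 26.1, 24 and 29.4 TPM in Zfp57 knockouts (-2.04 ± 0.29, adjusted p = 2.861e-08), below every control. Aurkb was at 31, 33.8 and 44.3 TPM in Kdm6b and 60.7, 39.8 and 78.2 TPM in Zfp57 knockouts, against 166, 146 and 122 TPM in controls (-1.97 ± 0.28 and -1.30 ± 0.28). Cdc20 was at 411, 336 and 427 TPM in Kdm6b and 517, 394 and 389 TPM in Zfp57 knockouts, against 949, 836 and 671 TPM in controls (-1.06 ± 0.12 and -0.91 ± 0.12). Aurka was at 137, 141 and 139 TPM in Kdm6b and 184, 115 and 158 TPM in Zfp57 knockouts, against 299.6, 311 and 231 TPM in controls. None of these groups overlapped with the controls. Ccnb1 also fell in both (-0.63 and -0.82), as did the checkpoint gene Bub1b (-1.40 and -1.49), although within batch 5 alone the adjusted p of Bub1b in Zfp57 was 0.0525. Nusap1 in Kdm6b (-1.41) and Tpx2 in Zfp57 (-0.75) passed in the whole screen but not within the batch (adjusted p of 0.0587 and 0.155). Cdk1 and Cenpf passed in neither. The Ezh2 knockout, which lacks the PRC2 methyltransferase, had 3 members lower (26.9% of all genes passed, 14.5% lower). Cdc20 was at 452, 286 and 467 TPM (-1.05 ± 0.12, adjusted p = 2.108e-11) and Aurkb at 63.5, 51.2 and 64.8 TPM (-1.25 ± 0.28), with the same controls as above. Plk1 at 96.1, 40.2 and 47.4 TPM overlapped with its controls and did not pass within the batch (adjusted p = 0.102). Further mitosis genes fell in 17 and rose in 4 of 80 in Kdm6b, in 13 and 2 of 78 in Zfp57, and in 18 and 5 of 80 in Ezh2. Trophoblast markers summed to 1344 to 1412 TPM in Kdm6b, 4979 to 5613 TPM in Zfp57 and 4915 to 7506 TPM in Ezh2 knockouts, against 3499 to 3599 TPM in controls. PrE markers summed to 398 to 475 TPM in Kdm6b, 1295 to 1702 TPM in Zfp57 and 2937 to 3087 TPM in Ezh2 knockouts. The controls had a PrE sum of 959 to 1116 TPM. The part of either marker set was not tested. Kdm6b mRNA itself did not pass (adjusted p = 0.219).

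In batch 2, the knockout of Cxxc1, which targets H3K4 methyltransferase complexes to CpG islands, had 6 members lower (21.4% of all genes passed, 9.16% lower). Aurka was at 87.7, 124 and 78.8 TPM in Cxxc1 knockouts, against 202, 219 and 222 TPM in controls (-1.17 ± 0.15, adjusted p = 3.25e-10). Ccnb1 was at 282, 288 and 325 TPM, against 562, 585 and 536 TPM (-0.91 ± 0.12, adjusted p = 1.953e-09). Cdk1 was at 67.7, 58.5 and 53.2 TPM, against 119, 96.7 and 109 TPM (-0.85 ± 0.14, adjusted p = 8.188e-07). This was the largest fall of Cdk1 in the screen, and it put kinase and cyclin down together. Cdc20 (-0.80), Plk1 (-1.05) and Aurkb (-0.78) were lower as well, the last pair not within the batch (adjusted p of 0.106 and 0.0517), and Aurkb lost its call in 5 of 6 cases without 1 library. Cxxc1 mRNA was higher in its knockout, at 6.44 to 12.5 TPM against 0.405 to 2.63 TPM in controls, and passed the test, so its level goes against a simple loss of transcript in the libraries labelled Cxxc1 knockout. The Suz12 knockout had 5 members lower (21.9% of all genes passed, 7.42% lower). Cdc20 was at 278, 286 and 309.6 TPM in Suz12 knockouts, against 579, 527 and 484 TPM in controls (-0.86 ± 0.12, adjusted p = 1.344e-08). Aurkb was at 34.4, 32.3 and 52.5 TPM, against 80.3, 74.7 and 83.4 TPM (-1.01 ± 0.28, adjusted p = 0.004335). Ccnb1 (-0.70), Aurka (-0.85) and Plk1 (-0.85) also fell, Plk1 not within the batch (adjusted p = 0.203). Cdc20 and Aurkb are the pair that also passed in Epi of the Suz12 Eed table, which has its own controls. Suz12 mRNA was at 3.98 to 5.49 TPM in the knockout and 19.1 to 31.5 TPM in controls. Further mitosis genes fell in 27 and rose in 0 of 79 in Cxxc1, and fell in 22 and rose in 3 of 80 in Suz12, S phase genes in 15 and 4 of 26. Trophoblast markers summed to 5569 to 6160 TPM in Cxxc1 and 15057 to 15609 TPM in Suz12 knockouts, and to 4117 to 4334 TPM in controls. Their part was not tested. Of the other knockouts of the batch, Ascl2 had 3 members lower (6.91% of all genes passed, 2.67% lower), namely Cdc20 (-0.50), Aurka (-0.52) and Ccnb1 (-0.44). Within the batch Cdc20 and Aurka lost these calls (adjusted p of 0.0534 and 0.232), and without 1 library Aurka and Ccnb1 lost theirs in 4 of 5 cases and Cdc20 in 2 of 5. Ascl2 mRNA was at 28.2 to 29.8 TPM in the libraries labelled Ascl2 knockout and 4.59 to 8.74 TPM in controls, so its level does not mark a loss of transcript. Cdc20 alone was lower in Lmo2, at 282 to 380 TPM, and in Mcrs1, at 357 to 401 TPM, against 484 to 579 TPM in controls (-0.66 and -0.46, where 5.11 and 17% of all genes passed). In Ets2 Cdk1 alone passed (-0.47, where 23.4% of all genes did), with overlapping groups and an adjusted p of 0.107 within the batch. Elf5 had Cenpf higher (24, 30.2 and 23.9 TPM, against 16.3, 10.3 and 14.5 TPM in controls) and Cdc20 and Plk1 lower (25% of all genes passed, 11.4% higher and 13.7% lower), calls that were all lost within the batch, and its Plk1 values of 98.5, 17.1 and 32.4 TPM lay on both sides of the controls.

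Batch 4 held only higher calls, against controls with the lowest batch means of Tpx2 and Nusap1 in the screen. The knockout of Myc, a growth-promoting transcription factor, had 6 members higher (9.72% of all genes passed, 6.9% higher). Nusap1 was at 76.5, 59.3 and 60.9 TPM in Myc knockouts, against 17.2, 30.3 and 18.6 TPM in controls (1.57 ± 0.40, adjusted p = 0.003531). Tpx2 was at 90.4, 67.6 and 74.2 TPM, against 31.6, 32.6 and 32.1 TPM (1.23 ± 0.23, adjusted p = 2.73e-05). Cenpf was at 17.2, 17.9 and 19.6 TPM, against 7.62, 7.41 and 6.81 TPM (1.22 ± 0.28, adjusted p = 0.0008632). Aurka (0.54), Ccnb1 (0.46) and the activator Cdc20 (0.40) rose as well, by smaller log2 changes. Myc mRNA was at 131 to 160 TPM in its knockout and 45.6 to 68.8 TPM in controls and passed as higher, so the libraries labelled Myc knockout carry more Myc transcript. Of 79 further mitosis genes 18 rose and 1 fell, and of S phase genes 3 of 26 rose. The Tfap2c knockout, of a trophoblast and germ cell factor, had 5 members higher (13.5%, 8.21% higher): Nusap1 (1.19), Tpx2 (1.06), Cenpf (1.01), Aurka (0.56) and Cdc20 (0.53). Nusap1 in Tfap2c lost its call in 5 of 6 cases when 1 library was left out (highest adjusted p = 0.143), and Cdc20 in Myc in 4 of 6 (0.138). The Kdm6a knockout, of the X-linked H3K27 demethylase, had 4 higher (9.29%, 5.56% higher). In it Cdc20 was at 1099, 1099 and 957 TPM, against 554, 626 and 609 TPM in controls (0.82 ± 0.12, adjusted p = 4.155e-07), with no overlap, and Tpx2 at 59.8, 62 and 69 TPM (0.96 ± 0.23). Plk1 in Kdm6a, at 143, 132 and 135 TPM against 79.5, 72.7 and 70 TPM in controls, passed as well (0.88 ± 0.29, adjusted p = 0.03638), although it lost its call in 6 of 6 cases without 1 library (highest adjusted p = 0.118), and Aurka (0.44) in 5 of 6 (0.267). Cdc20 and Plk1 thus lay above controls in Kdm6a and below controls in Kdm6b, in different batches, a difference not tested. Kdm6a mRNA did not pass in its knockout (adjusted p = 0.313). In the knockout of the homeobox gene Otx2, Cdc20 alone was higher, at 739 to 924 TPM, against 554 to 626 TPM in controls (0.44, where 4.42% of all genes passed). Trophoblast markers summed to 11114 to 11628 TPM in Myc, 2587 to 2636 TPM in Tfap2c and 5449 to 5781 TPM in Kdm6a knockouts, and to 3135 to 3466 TPM in controls. Their part was not tested.

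In batch 3 only the knockout of Atrx, a chromatin remodeller, had members called, 3 of them higher, where 3.46% of all genes passed (1.61% higher). Cdc20 was at 527, 536 and 410.0 TPM in Atrx knockouts, against 296, 319 and 326 TPM in controls (0.63 ± 0.12, adjusted p = 0.0001763). Tpx2 was at 67.1, 66.4 and 58.6 TPM, against 38.2, 38.4 and 36 TPM (0.75 ± 0.23, adjusted p = 0.04433). Cenpf was at 16.8, 16.1 and 13.8 TPM, against 7.28, 8.05 and 8.4 TPM (0.89 ± 0.28, adjusted p = 0.04996). The groups did not overlap, but Tpx2 and Cenpf lost their calls in 6 of 6 cases without 1 library (highest adjusted p of 0.175 and 0.2). Trophoblast markers summed to 2899 to 3081 TPM in Atrx knockouts and 8579 to 8829 TPM in controls. The Zbtb17 knockout of batch 6 had 4 members lower (30.4% of all genes passed, 19.9% lower). Zbtb17 mRNA was at 0.0122 to 14.2 TPM in this knockout and 0.312 to 4.21 TPM in controls, and did not pass limma (adjusted p = 0.487). Nusap1 was at 29.3, 7.45 and 0.822 TPM, against 37, 35.5 and 31.8 TPM in controls, and Bub1b at 18.5, 18.5 and 0.545 TPM, against 28.6, 28.8 and 27.1 TPM. With Cdk1 (-0.56) and Cdc20 (-0.54), all 4 calls were lost within the batch (adjusted p of 0.22, 0.344, 0.198 and 0.0805), and the knockout libraries ranged widely. They had 7447 to 9225 genes at 1 TPM, against 9982 to 10434 in controls, and trophoblast markers of 11997 to 14168 TPM, against 3562 to 4338 TPM. Bend3, a BEN domain repressor, was the target in 2 batches. Its own mRNA was at 7.03 to 22.3 TPM in the libraries labelled Bend3 knockout of batch 7 and 4.05 to 5.69 TPM in their controls, higher past the test (adjusted p = 0.0377), but lower in batch 8 (9.89 to 10.8 TPM in knockouts, 17.5 to 43.3 TPM in controls), so directions from batch 7 go with a target that goes against its label. In batch 7 Plk1 was at 264, 179 and 332 TPM in the labelled knockouts, against 150.2 and 131 TPM in controls (0.83 ± 0.32), and in batch 8 at 134, 122 and 129.6 TPM, against 218, 269.9 and 283 TPM in controls (-0.99 ± 0.29). The difference between batches was not tested. Bub1b was lower in both (-2.11 and -1.42), though in batch 7 its values of 26.7, 2.55 and 7.82 TPM overlapped with controls at 62.2 and 25.9 TPM, and all 3 batch 7 calls were lost within the batch, Ccnb1 (0.41) among them. In batch 8 Cdc20 was lower too, at 666, 677 and 741 TPM in knockouts, against 1132, 1123 and 876 TPM in controls (-0.58 ± 0.12). Of all genes, 38.8% passed in batch 7 (10.6% higher, 28.2% lower) and 28.6% in batch 8 (15.3% higher, 13.3% lower). The batch 7 libraries had 7236 to 7905 genes at 1 TPM in the labelled knockouts and 8331 to 8383 in controls. The Hdac1 Hdac3 double knockout of batch 10, which lacks 2 histone deacetylases, had Cdc20 (545, 479 and 538 TPM, against 995, 1021 and 721 TPM in controls, -0.79 ± 0.12) and Plk1 (-1.05 ± 0.29) lower, where 7.57% of all genes passed (3.59% lower). Its trophoblast markers summed to 8911 to 9773 TPM, against 2421 to 3278 TPM in controls, and its PrE markers to 1559 to 1903 TPM, against 718 to 1004 TPM in controls, and their part was not tested. In the knockout of Gtf2b, a general transcription factor, Plk1 alone was lower (-0.93, where 15.4% of all genes passed), at 38.7 to 75.6 TPM in knockouts, overlapping with 66.5 to 165 TPM in controls.

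Aurkb is both a member and a target of the screen. In the libraries labelled Aurkb knockout its transcript was at 36.5, 37.1 and 35.9 TPM, against 66.9, 50.6 and 61.5 TPM in batch 1 controls, which lay apart but did not pass with the 3 counted as 1 library (log2 change -0.68, adjusted p = 0.299). Counted as 3 they did (0.0493). Because the 3 are so alike, the tests below set 1 sample against 3 and assume that it varies like the other groups, so these 5 of the 80 calls rest on the spread of other groups. Among the other members 5 were higher and none lower, where 7.94% of all genes passed (3.88% higher, 4.07% lower). Plk1 was at 169.6, 187 and 183 TPM in Aurkb knockouts, against 49.3, 49.6 and 39.6 TPM in controls (1.95 ± 0.41, adjusted p = 0.0003577). Aurka, the paralogous spindle pole kinase, was at 362, 378 and 375 TPM, against 178, 178 and 177 TPM (1.06 ± 0.21, adjusted p = 0.0001632). Tpx2, the activator of Aurka, was at 101, 97.8 and 98.9 TPM, against 41.3, 47.5 and 43.4 TPM (1.15 ± 0.33, adjusted p = 0.01387). Cdc20 (867, 904 and 898 TPM, against 567, 486 and 522 TPM in controls, 0.76) and Ccnb1 (907, 871 and 892 TPM, against 577, 579 and 543 TPM, 0.65) also rose, Ccnb1 not within the batch (adjusted p = 0.0597). Cdk1 was nearly level, at 136, 134 and 134 TPM in knockouts and 131, 130.1 and 124 TPM in controls. Nusap1, Cenpf and Bub1b lay above every control without passing, with Bub1b at 30.7, 28.3 and 30.7 TPM in knockouts and 17.2, 16.1 and 15.3 TPM in controls. S phase genes did not share the rise, with 0 of 26 higher and 2 lower, and 5 of 79 further mitosis genes rose and 2 fell. Trophoblast markers summed to 10165 to 10257 TPM in Aurkb knockouts and 3061 to 3347 TPM in controls, and their part was not tested. Nelfb, Snai1 and Ssrp1 of the same batch, with the same controls, also had Aurka higher (0.57, 0.72 and 0.60), where 21.4, 1.49 and 6.61% of all genes passed (11.7, 0.756 and 4.4% higher). Besides, Cenpf was higher in Nelfb (0.92), Cdc20 in Ssrp1 (0.50) and Ccnb1 in Snai1 (0.45), the last not within the batch (adjusted p = 0.155). PrE markers summed to 3826 to 4372 TPM in Nelfb knockouts and 960 to 1031 TPM in controls, and their part was not tested. Nelfb and Snai1 mRNA averaged 18.6 and 13.8 TPM in their own knockouts, against 10.9 and 8.82 TPM in controls. Neither passed limma (adjusted p of 0.298 and 0.852).

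**Figure D5:**
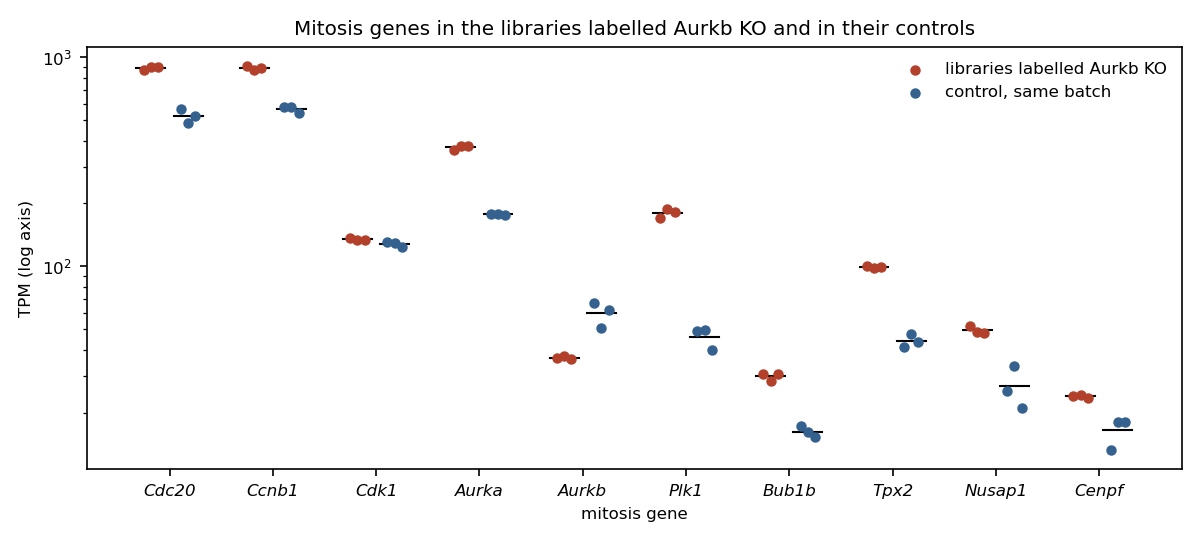
Level in TPM, on a log axis, of the 10 mitosis genes in the 3 libraries labelled Aurkb knockout and in the 3 batch 1 controls, with a point per library. Aurkb lies below its controls, Cdk1 is close to them, and Plk1 is furthest above, at 169.6, 187 and 183 TPM against 49.3, 49.6 and 39.6 TPM.

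Across 146 screen libraries, taken as deviations from the mean of their batch, the members varied together only in part. These correlations are descriptions over libraries that share controls, batches and composition, and carry no p. Of 45 pairs the median Pearson correlation was 0.371, with Cdc20 and Plk1 highest at 0.645, Cdc20 and Aurka at 0.606, Cdc20 and Aurkb at 0.6 and Ccnb1 and Aurka at 0.582. Cenpf and Bub1b were unrelated, at -0.0155. Among 7343 other genes with a mean of at least 5 TPM, those most like the members' mean were Tuba1b, an alpha tubulin (0.753), the chaperone partner Fkbp4 (0.715), the glycolytic enzyme Pkm (0.695), Cct6a (0.685), Eif3l (0.684), Atp5a1 (0.68), Cct3 (0.672), Eno1 (0.66), Kif20a (0.66) and Ino80e (0.656). Kif20a is the one of these on the further mitosis list, and Cct6a and Cct3 are subunits of the chaperonin that folds tubulin. The median correlation with the members' mean was 0.29 for 73 further mitosis genes, 0.273 for 25 S phase genes and 0.0956 for all genes.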

How the data were processed

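The deposited tables hold TPM of polyadenylated RNA, amplified by Smart-seq2 with 17 cycles per the labels' protocols. The tools named in the submitters' processing notes are StringTie 2.2.1, HISAT2 2.2.1 and Cufflinks, with the mm10 build, and what each did is not given in the sources used here. TPM keeps no read depth, so counting error is unknown and tables were never tested against each other. No sample columns were left unused.

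Without gene names in the EB table, its values were read in the row order of the screen table, with which levels correlated at 0.904 across genes, against at most 0.11 when shifted and -0.0151 in alphabetical order.

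TPM were tested as log2(TPM + 1) with limma 3.58.1 (trend, R 4.3.3, with data.table in version 1.17.8). A filter came first, of 1 TPM in at least as many compared libraries as the smaller group holds, and in no fewer than 2. Adjustment was Benjamini-Hochberg over all genes of a comparison, with a threshold of 0.05, and called means past it. All groups of a table shared a fit, so screen batches share a spread, with each knockout set against its own batch's controls. The method was tested on simulated data. PrE control libraries 1 and 2 were averaged, as were the 3 Aurkb knockout libraries.

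The members and lists (80 further mitosis, 26 S phase and marker genes) were chosen with earlier results of these data known. All members are named in the comparisons of the smaller tables, and in the screen those called in a knockout, with up to 4 genes per list of smallest adjusted p in the smaller tables. Coordinates are from GENCODE vM21 and promoters from RefSeq. Figures used Python 3.11.15 and matplotlib 3.10.9.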

Additional observations from a re-analysis of the deposited data

Results flagged for a closer look

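Effects of the Suz12 Eed knockout that differed between PrE and Epi by a test of the difference were those of Cdc20 (adjusted p = 0.000491 by limma), Plk1 (0.000934) and Aurkb (0.0029). In each case the 3 knockout PrE libraries lay above the PrE controls and the 3 knockout Epi libraries below the Epi controls. Of all genes, 19.1% passed this test of the difference, 15% with a positive value.

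Effects of the Zbtb17 knockout in embryoid bodies that differed between days 0, 1, 2 and 3 by limma's F test were those of Plk1 (adjusted p = 4.09e-05), Cenpf (0.000259), Aurkb (0.000717), Aurka (0.00103), Tpx2 (0.00131), Cdc20 (0.00225), Nusap1 (0.00599), Cdk1 (0.0243) and Bub1b (0.0394). Of all genes, 60.1% passed this test by day. The day 0 libraries stood apart in gene number and ribosomal protein share, and their part in these differences was not tested. Without them 5 of the 9 passed, where 6162 of 14631 genes did. With quantile normalization 4 of the 9 passed, where 5918 of 14795 genes did. Without 1 library Bub1b lost its call in 13 of 16 cases and Cdk1 in 5 of 16.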

How the results depend on the processing

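Depth is unknown, so counting error could not be set beside any value, and Bub1b and Nusap1 had the widest spread between libraries. Of 83 member calls outside the screen, 61 were kept with quantile normalization, 76 with a pseudocount of 0.1 and 73 without the filter, and of the 80 screen calls 70, 76 and 79. Fitting only the compared groups kept 62 of 65 calls outside the screen and 58 of 80 in it.

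Counts of members called moved as follows. Without the filter on low values GSK-J4 at E4.5 had 0 called members in place of Cdc20 alone, GSK-J4 at E5.0 had 1, the Suz12 Eed knockout in Epi 1 and dTAG 0. With a pseudocount of 0.1 the Epi count was 1 and dTAG had 0. Quantile normalization gave 0 for dTAG and 4 for the EB test by day, which gave 5 on days 1 to 3 only, an alternative chosen after seeing the data. EB day 0 gave 1 with only the compared groups fitted. With PrE controls 1 and 2 kept separate PrE had 5. With the Aurkb knockout libraries separate the Aurkb transcript changed by -0.68 on the log2 scale with an adjusted p of 0.0493 by limma. With those libraries averaged, leaving out 1 control library gave changes of -0.80 to -0.60. Quantile normalization lost Cdc20 with GSK-J4 at E5.0 (-0.26, adjusted p = 0.24) and Aurkb in knockout PrE (0.75, adjusted p = 0.0848).

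Quantile normalization turned the direction of Aurka (-0.15), Aurkb (-0.063) and Tpx2 (-0.081) in the EB knockout on day 0, and of wild-type days 1, 2 and 3 minus day 0 for Cenpf (-1.60, -1.34 and -1.24) and Cdk1 (-0.48, -0.52 and -0.040), and of days 1 and 2 for Nusap1 (-0.34 and -0.0047). The cause was not tested.

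With the same replicate number left out of every screen group but the Aurkb knockout, 52 to 60 pairs were called in the screen, with 160 of 240 calls kept over the 3 numbers. Without 1 library at a time, called members numbered 1 to 1 in the E4.5 GSK-J4 table and 1 to 3 in the E5.0 one, 0 to 2 in Epi, 2 to 4 in PrE, 3 to 4 for the interaction, 6 to 7 for control PrE minus Epi, 0 to 0 for Zbtb17 at E4.5 and 0 to 2 for dTAG. In EB they numbered 2 to 5, 2 to 4, 4 to 5 and 8 to 8 on days 0, 1, 2 and 3, 7 to 9 by day and 10 to 10 for wild type against day 0. In all, 421 of 486 calls were kept outside the screen and 311 of 393 in it, where 68 libraries of 16 knockouts and their controls were left out. The test by day lost Bub1b in 13 of 16 cases. On EB day 1 Cdc20 lost its call in 4 of 4 cases and Ccnb1 in 3 of 4, and on day 2 Tpx2 in 3 of 4.

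Equal replicate numbers were not taken to pair libraries, since in 0 of 52 comparisons every one of 3 pairs of deviations correlated over 0.1. Comparisons with only 2 shared numbers are among the 52 and could not meet this rule. For the Suz12 Eed knockout in Epi the 3 pairs correlated at 0.0896 to 0.215. With the replicate number as a block, 81 of 81 calls outside the screen and 79 of 80 in it were kept, and Ccnb1 was added in Epi (-0.38, adjusted p = 0.0411) and for the interaction (0.52, adjusted p = 0.0441). No paired analysis was possible because of unshared numbers in the dTAG table, where controls are numbered 55 to 57.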
